A study of Mus musculus with 30 samples.

Results

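The interleukin 1 family and its receptors were followed as 9 genes, taken by their symbols from a table of 25611 genes. They were the ligands Il1a, Il1b and Il18, the receptor antagonist Il1rn, the receptors Il1r1, Il1r2 and Il1rl1, and the co-receptors Il1rap and Il18rap. All 9 were found and passed the filter on low counts, which 14808 genes passed. RNA was sequenced from dendritic cells grown out of mouse bone marrow for 6 to 7 days with FLT3L, a growth factor for dendritic cell precursors, at 200 ng/ml. The mice were Rubcn knockout (KO) or wild type (WT). Cultures received nothing (untreated), the egg protein ovalbumin (OVA), or dying Jurkat cells, apoptotic cells of a leukaemic human T line, and the last 2 were sampled at 30 min and 4 h. Genotype and treatment made 10 groups with 3 libraries in each, 30 in all. Rubcn encodes Rubicon, a protein needed for LC3-associated phagocytosis, and the labels do not give the allele.

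Interleukin 1 alpha and beta bind the receptor encoded by Il1r1, which pairs with the accessory chain encoded by Il1rap to signal through MyD88 and NF-kB. The system carries its own brakes: the antagonist encoded by Il1rn occupies the receptor without signalling, and Il1r2 encodes a decoy receptor that binds the ligand but lacks a signalling domain. Il1rl1 encodes ST2, the receptor for interleukin 33, and Il18rap the accessory chain of the interleukin 18 receptor. Il1b and Il18 proteins are made as precursors that caspase-1 cuts in the inflammasome, so RNA levels do not measure released cytokine.

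The 3 family genes with the steepest rises after 4 h of Jurkat cells lie on chromosome 2, and their upstream sequences are shown because they moved together. All 9 genes matched the RefSeq promoter table (GRCm38.p6), with 13 windows of 250 bases before a transcript start. Each line below reads 5′ to 3′ towards the start, with matches in capitals. Searched on both strands were an AP-1 motif (TGANTCA), an NF-kB motif (GGG, any 5 bases, CC) and an interferon response motif (GAAA, any 2 bases, GAAA). Over 32851 windows of the same length, 6.75% held the AP-1 motif, 45.8% the NF-kB motif and 2.98% the interferon motif. The windows lie at chr2:129309973-129310222 (minus strand) for Il1a, chr2:129371140-129371389 (minus strand) for Il1b and chr2:24336610-24336859 (plus strand) for the first start of Il1rn.
Il1a: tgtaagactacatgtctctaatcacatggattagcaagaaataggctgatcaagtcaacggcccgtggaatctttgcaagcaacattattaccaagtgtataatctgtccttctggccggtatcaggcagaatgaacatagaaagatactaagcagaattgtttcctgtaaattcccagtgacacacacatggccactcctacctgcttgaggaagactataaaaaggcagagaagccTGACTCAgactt
Il1b: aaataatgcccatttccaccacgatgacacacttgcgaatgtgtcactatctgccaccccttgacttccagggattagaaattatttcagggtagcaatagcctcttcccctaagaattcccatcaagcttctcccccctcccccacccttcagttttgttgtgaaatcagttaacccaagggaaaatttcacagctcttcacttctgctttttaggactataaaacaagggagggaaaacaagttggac
Il1rn: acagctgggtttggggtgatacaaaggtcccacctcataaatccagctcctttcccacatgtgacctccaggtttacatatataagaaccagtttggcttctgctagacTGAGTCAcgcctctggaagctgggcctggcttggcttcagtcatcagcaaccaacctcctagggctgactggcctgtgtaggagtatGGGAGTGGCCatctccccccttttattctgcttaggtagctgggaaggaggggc
The Il1a window held an AP-1 match 12 to 6 bases before the start. The Il1rn window held an AP-1 match 141 to 135 bases and an NF-kB match 54 to 45 bases before the start, which do not overlap. The Il1b window held no match, which says only that these letters are not in these 250 bases. Among the windows not shown, that of Il1rap held 6 NF-kB matches over both strands, some of them overlapping. A later start of Il1rn and a later start of Il1r1 held 1 NF-kB match each, and the remaining windows held none of the motifs. Matches were thus not limited to the genes with the steepest rises.

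Total counts ranged from 9734778 to 51642601 per library, and KO 30 min OVA replicate 3 was the shallowest. Levels are in CPM, counts per 1e6 counts of the TMM-scaled library, and a call is an FDR under 0.05 by edgeR's quasi-likelihood test over all 14808 genes. Rubcn was lower in KO in all 5 conditions, at 73.6% to 84.8% of WT, without overlap between libraries, which is the direction the genotype labels give. The titles do not say whether replicates came from separate mice, so p-values measure the spread between these libraries, which may be technical. All 11 markers of conventional dendritic cells were above 1 CPM in every group, led in untreated WT by H2-Ab1, Ciita and Flt3. Monocyte and plasmacytoid dendritic cell markers were also present, at summed levels of 5047 ± 361 and 2742 ± 40.3 CPM in untreated WT (SD, n = 3). In such bulk RNA, fewer cells of a type and less RNA per cell cannot be told apart.

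In resting WT cells the decoy receptor was the most abundant member. Per kilobase of exon, Il1r2 stood at 46.7 CPM per kb in untreated WT, ahead of Il1b at 12.6, Il18 at 6.54 and Il18rap at 5.16 CPM per kb. Il1rl1 (2.92) and Il1rn (2.72) followed on the same scale, then the signalling receptor Il1r1 (1.31), its partner Il1rap (0.810) and, lowest, Il1a (0.256). After 4 h of Jurkat cells the order in WT was different: Il1b reached 499.9 CPM per kb, Il1rn 35.2 and Il1a 35.2, while Il1r2 stood at 16.02. Il1a and Il1rn could not be ranked there per kilobase, while in CPM Il1rn (195) stood above Il1a (69.4). Exon lengths came from a GENCODE annotation with all transcripts of a gene merged, and the annotation used for counting is not given. In CPM alone Il1r2 also led in untreated WT (89.0), but Il18rap (34.9) came before Il1b (24.0), and Il18 (6.74) was next to last. Below Il1r2 the order thus depended on the lengths used.

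**Figure D1:**
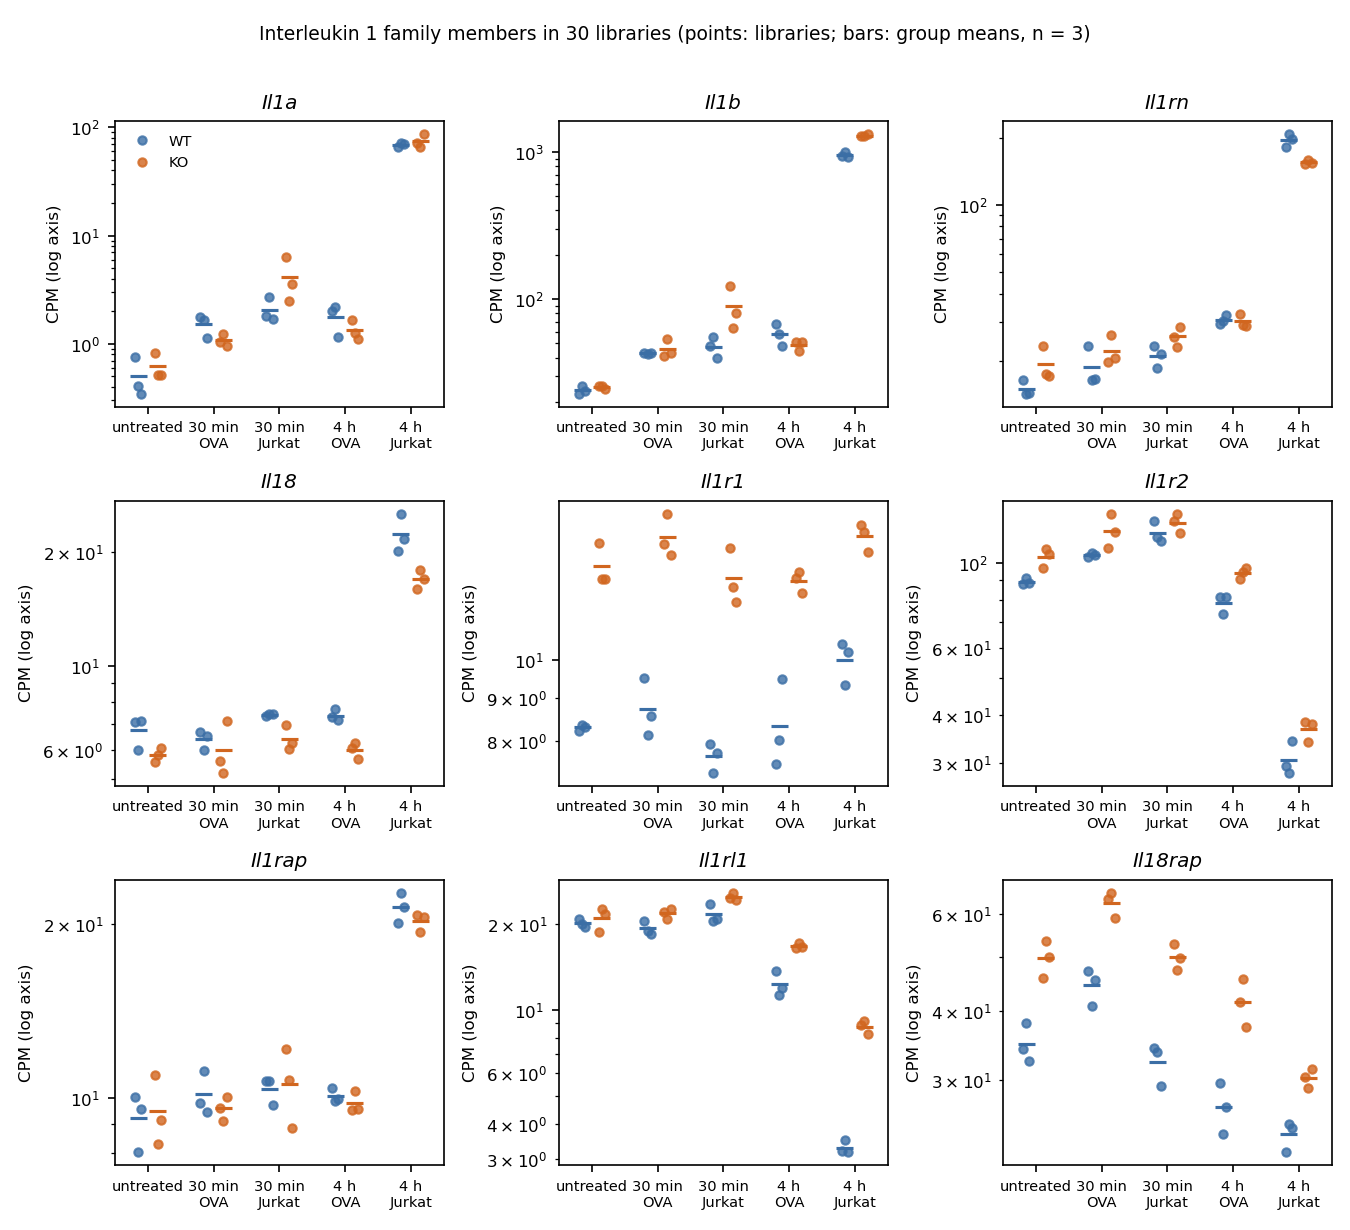
Level of each of the 9 genes (CPM, log axis) by condition, with 1 point per library, WT in blue and KO in orange, and bars at the group means (n = 3). The 3 genes of the top row are highest with Jurkat cells at 4 h, Il1r2 and Il1rl1 are lowest there, and for Il1r1 every KO library lies above every WT library of its condition.

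With apoptotic Jurkat cells at 4 h, 9 of 9 members were called in WT by edgeR, 6 higher and 3 lower. Of all genes 79.5% were called, 38.9% higher and 40.6% lower, so the count does not set the family apart. The Il1r1 call depended on the scaling, as given below. The genes that went up were Il1a, Il1b, Il1rn, Il18, Il1rap and Il1r1, and those that went down were the decoy receptor Il1r2, the ST2 gene Il1rl1 and Il18rap. In KO 8 of 9 were called (78.5% of all genes, 37.5% higher and 41% lower), 5 higher and 3 lower, and Il1r1 was the exception by edgeR (log2 0.12, FDR 0.129). DESeq2 called Il1r1 there too (0.18, adjusted p 0.0314). All 4 comparisons of a genotype's treated cells with untreated cells share the untreated libraries of that genotype.

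Il1b, which encodes interleukin 1 beta, was at 22.8, 25.6 and 23.6 CPM in untreated WT and at 940.5, 997 and 922 CPM after 4 h of Jurkat cells. In KO the libraries were at 25.7, 25.7 and 24.3 CPM untreated and at 1272, 1283 and 1315 CPM after 4 h. The untreated libraries of both genotypes fell in 1 narrow band, and every treated library stood far above it. The rise was 5.31 on the log2 scale in WT (SE 0.170, edgeR FDR 6.95e-22) and 5.67 in KO (SE 0.172, FDR 2.2e-22).

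Il1a, which encodes the alpha form, started near the floor: untreated WT libraries held 34, 19 and 17 counts, or 0.757, 0.410 and 0.347 CPM. After 4 h of Jurkat cells they reached 66.04, 72.3 and 69.8 CPM. KO libraries went from 0.819, 0.518 and 0.521 CPM to 72.1, 65.2 and 86.2 CPM. This was the steepest rise in the family, 7.11 on the log2 scale in WT (SE 0.249, edgeR FDR 6.22e-21) and 6.91 in KO (SE 0.239, FDR 5.05e-21), and the low untreated counts limit its precision.

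The antagonist Il1rn went from 16.4, 14.3 and 14.4 CPM in untreated WT to 181, 207 and 197 CPM at 4 h of Jurkat cells, and in KO from 23.3, 17.6 and 17.1 CPM to 153, 158 and 153 CPM. KO libraries were thus the lower ones at 4 h, while among untreated libraries all 3 of KO stood above all 3 of WT without a call (log2 0.36, edgeR FDR 0.0618). The rises were 3.70 on the log2 scale in WT (SE 0.119, FDR 8.45e-22) and 3.0 in KO (SE 0.115, FDR 5.74e-20).

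Il18, made as an inflammasome substrate like Il1b, rose less. In WT it was at 6.74 ± 0.664 CPM untreated and 22.4 ± 2.64 CPM treated (SD, n = 3), a log2 fold change of 1.73 (edgeR FDR 1.7e-17). In KO it went from 5.80 ± 0.254 to 16.96 ± 0.989 CPM (log2 1.55, FDR 5.02e-16). Bco2, a carotenoid-cleaving enzyme gene on the opposite strand that overlaps Il18, went from 7.22 ± 0.398 to 19.3 ± 1.58 CPM in the same WT libraries. The library kit named does not mark strand, and the use of strand in counting is not given in the sources used here. Reads of both genes may therefore not be separated. Likewise Il1bos, opposite Il1b, reached 5.21 ± 0.487 CPM (WT) and 8.50 ± 0.411 CPM (KO) at 4 h of Jurkat cells.

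Among receptors, the accessory chain Il1rap in WT was at 9.20 ± 1.03 CPM untreated and 21.4 ± 1.27 CPM treated (SD, n = 3), a log2 fold change of 1.22 (edgeR FDR 1e-12). In KO it was at 9.48 ± 1.35 and 20.2 ± 0.739 CPM (1.09, FDR 9.58e-12). The signalling receptor Il1r1 moved little, from 8.31 ± 0.0659 to 9.99 ± 0.588 CPM in WT (log2 0.27, FDR 0.00298). Its direction depended on the scaling: with total counts, which place the median of all genes at -0.42 in WT and -0.37 in KO, Il1r1 was at -0.13 (FDR 0.139). No other member's call at 4 h changed direction with the scaling.

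The decoy receptor fell. Il1r2 libraries were at 87.7, 91.2 and 88.2 CPM in untreated WT and at 29.4, 28.2 and 34.1 CPM after 4 h of Jurkat cells, and in KO they went from 96.7, 108 and 105 CPM to 38.4, 33.95 and 37.8 CPM. Its log2 fold change was -1.54 in WT (SE 0.0715, edgeR FDR 5.38e-18) and -1.49 in KO (SE 0.0698, FDR 7.4e-18). Il18rap was at -0.55 in WT (FDR 1.15e-06) and -0.72 in KO (FDR 3.27e-09).

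T-lineage markers, which the human cells could add, summed over 23 genes to 101 ± 3.15 CPM (WT) and 115 ± 2.82 CPM (KO) without treatment. With Jurkat cells the sums were 142 ± 3.40 and 134 ± 4.74 CPM at 30 min, and 207 ± 21.2 and 171 ± 10.99 CPM at 4 h (SD, n = 3, WT before KO). Between 4 and 8 of the 23 were under 1 CPM in these groups, against 12 to 15 without Jurkat cells. The sums mix opposite movements: in WT at 4 h Zap70 went from 0.471 to 35.2 CPM and Lck from 2.84 to 43.4 CPM. Cd28 went from 52.9 to 23.0 CPM in the same comparison. The 9 endothelial markers summed to 215 ± 4.06 CPM untreated and 1226 ± 145 CPM at 4 h of Jurkat cells in WT, and to 200.2 ± 3.34 and 915 ± 50.8 CPM in KO. Kdr alone held 1074 CPM (WT) and 781 CPM (KO) at 4 h, while Emcn, Tek and Tie1 stayed under 1 CPM in all groups. The part of human reads or of such cells in the family's counts was not tested.

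**Figure D2:**
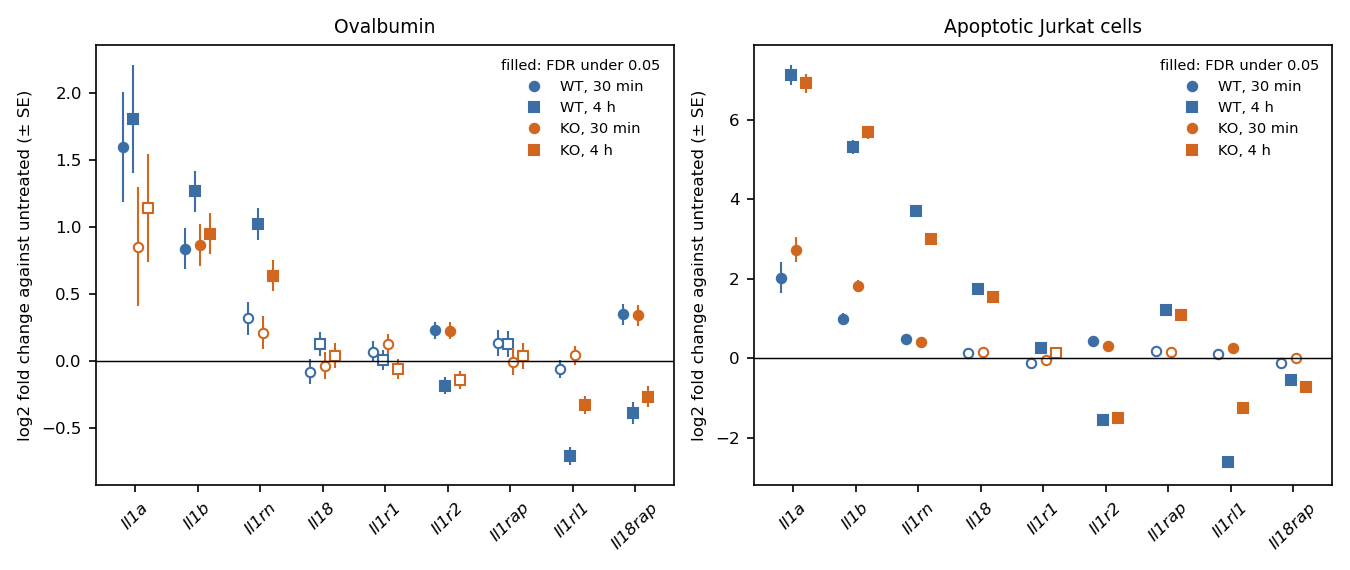
Log2 fold change against untreated cells of the same genotype (± SE) for each gene, with OVA on the left and Jurkat cells on the right. Circles are 30 min, squares 4 h, blue WT, orange KO, and filled symbols have an edgeR FDR under 0.05. On the right, the squares of the genotypes lie farthest apart for Il1rl1 (-2.61 in WT and -1.26 in KO).

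At 30 min of Jurkat cells the same 4 genes were called higher in both genotypes: Il1a, Il1b, Il1rn and Il1r2. In WT they made up 4 of 9 members (28.7% of all genes called, 14.2% higher and 14.5% lower), and in KO Il1rl1 was called too, 5 of 9 (17%, 8.72% higher and 8.26% lower). Il1b libraries were at 47.8, 54.9 and 39.8 CPM in WT and at 123, 64.02 and 80.3 CPM in KO, so replicate 1 of KO stood apart. Its log2 fold change was 0.98 in WT (SE 0.154, edgeR FDR 1.88e-05) and 1.82 in KO (SE 0.152, FDR 6.48e-10; 1.51 without KO 30 min Jurkat replicate 1). The Il1rn call in KO (log2 0.41, FDR 0.015) did not hold without KO 30 min Jurkat replicate 3 (log2 0.34, FDR 0.0798), KO untreated replicate 2 (0.35, FDR 0.0849) or KO untreated replicate 3 (0.33, FDR 0.1003), nor with only the groups compared in the fit (FDR 0.0557). The Il1rl1 call in KO (log2 0.25, FDR 0.00865) was lost without KO untreated replicate 1 (0.17, FDR 0.0778) and with only the groups compared (FDR 0.0614).

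Il1b was called higher with ovalbumin than untreated at both times in both genotypes, and Il1a at both times in WT. The labels give the untreated cells no time. In comparisons with untreated cells, an agent and the time in culture therefore cannot be told apart. In WT at 30 min 4 of 9 members were called, all higher (10.7% of all genes, 5.51% higher and 5.15% lower): Il1a (log2 1.60), Il1b (0.84), Il18rap (0.35) and Il1r2 (0.23). At 4 h 6 were called (23.5%, 11.9% higher and 11.7% lower), with Il1a (1.81), Il1b (1.27) and Il1rn (1.02) higher and Il1rl1 (-0.71), Il18rap (-0.38) and Il1r2 (-0.18) lower. Il18rap thus was higher at 30 min and lower at 4 h, with libraries at 34.2, 38.1 and 32.4 CPM untreated, 47.2, 40.8 and 45.5 CPM at 30 min and 29.6, 23.9 and 26.7 CPM at 4 h. Neither time overlapped the untreated libraries.

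In KO 3 members were called at 30 min of OVA (3.77% of all genes, 1.88% in each direction), namely Il1b (log2 0.87), Il18rap (0.34) and Il1r2 (0.23), and 4 at 4 h (11.6%, 5.94% higher and 5.69% lower). Those were Il1b (0.95) and Il1rn (0.64), higher, and Il1rl1 (-0.33) and Il18rap (-0.26), lower. Il1a was not called in KO at either time by edgeR (log2 0.86, FDR 0.337, and 1.14, FDR 0.0631), while DESeq2 called it at 4 h (1.12, adjusted p 0.0124). The 30 min value rested on 10 to 57 counts per KO library with OVA. Il18, Il1r1 and Il1rap were not called with OVA in either genotype by edgeR or DESeq2, and none of their 12 comparisons had an unadjusted p under 0.05. Several of the OVA calls rested on single libraries. Il1a in WT at 30 min was lost without WT 30 min OVA replicate 1 or WT untreated replicates 2 or 3 (log2 1.38 to 1.48, FDR 0.0562 to 0.0688). Il18rap in KO at 30 min was lost without KO 30 min OVA replicate 2 (0.31, FDR 0.0923) or KO untreated replicate 1 (0.29, FDR 0.0728), and at 4 h without KO 4 h OVA replicates 1 or 3 or KO untreated replicates 2 or 3 (-0.26 to -0.20, FDR 0.0686 to 0.174). Il1r2 was lost at 30 min in WT without WT 30 min OVA replicate 2 or WT untreated replicate 3 (0.22 and 0.23, FDR 0.0751 and 0.0685). At 4 h in WT Il1r2 was lost without any 1 of the 6 libraries (-0.20 to -0.13, FDR 0.0529 to 0.221), and at 30 min in KO without any 1 but KO 30 min OVA replicate 1 (0.14 to 0.27, FDR 0.0552 to 0.437). With TMM factors from genes not higher with Jurkat cells at 30 min both Il1r2 calls were lost (FDR 0.0654 and 0.0504), and in KO also with total counts (0.0541) and only the groups compared (0.109).

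Set directly against OVA at the same time, Jurkat cells at 4 h gave 8 calls of 9 in WT (77.5% of all genes, 37.2% higher and 40.3% lower) and 9 of 9 in KO (76.4%, 36.3% higher and 40.1% lower). The largest were Il1a, at 5.30 in WT and 5.77 in KO on the log2 scale, and Il1b, at 4.04 and 4.72. At 30 min the agents differed for 2 members in WT (24.3% of all genes, 11.9% higher and 12.3% lower), with Il1r2 higher (log2 0.19, FDR 0.0288) and Il18rap lower (-0.46, FDR 9.33e-05) with Jurkat cells. The Il1r2 call was lost without WT 30 min Jurkat replicate 1 (0.14, FDR 0.186) or any 1 of the WT 30 min OVA libraries (0.18 to 0.20, FDR 0.0578 to 0.0791). In KO 3 members differed at 30 min (10.2%, 5.3% higher and 4.92% lower): Il1a (1.88, edgeR FDR 1.68e-04) and Il1b (0.95, FDR 9.22e-05; 0.64 without KO 30 min Jurkat replicate 1) were higher, and Il18rap (-0.34, FDR 0.00575) was lower. The Il1r1 differences at 4 h were 0.26 in WT and 0.18 in KO, and -0.13 and -0.17 with total counts. The KO call was also lost without KO 4 h Jurkat replicates 1 or 2 or KO 4 h OVA replicates 1 or 3 (0.15 to 0.18, FDR 0.0568 to 0.102) and with no filter (0.15, FDR 0.0878).

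Il1r1 and Il18rap were called higher in KO than in WT in all 5 conditions. In untreated cells 3 of 9 members were called, all higher in KO (9.97% of all genes, 6% higher and 3.97% lower): Il1r1, Il18rap and Il1r2. The median log2 fold change of the 9 members was 0.22, and that of all genes -0.01. With OVA at 30 min the same 3 were called (12.4%, 6.25% higher and 6.13% lower), and with Jurkat cells at 30 min 5, all higher (9.25%, 5.58% higher and 3.67% lower). With OVA at 4 h 5 were called, 4 of them higher (12.6%, 6.22% higher and 6.35% lower), and with Jurkat cells at 4 h 7, 5 of them higher (22.9%, 9.37% higher and 13.5% lower). Il1rap was called in none of the 5, by edgeR or by DESeq2, with 0 unadjusted p under 0.05. Libraries of KO and WT did not overlap for 4 members in untreated cells, where 24.8% of all genes did not overlap.

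The signalling receptor gene Il1r1 was at 13.8, 12.5 and 12.5 CPM in untreated KO and at 8.24, 8.37 and 8.33 CPM in untreated WT. After 4 h of Jurkat cells it was at 14.5, 14.2 and 13.4 CPM in KO and 10.4, 9.33 and 10.2 CPM in WT. KO and WT did not overlap, even across conditions: the lowest KO library of any condition (11.7 CPM) stood above the highest WT library of any condition (10.4 CPM). The log2 difference was 0.63 in untreated cells (SE 0.0744, edgeR FDR 8.9e-07), 0.69 and 0.70 with OVA and Jurkat cells at 30 min, and 0.57 and 0.49 at 4 h. Group means of Il1r1 ran from 7.68 to 9.99 CPM in WT and from 12.4 to 14.03 CPM in KO. In that order, untreated, 4 h OVA and 30 min OVA in WT (8.31 ± 0.0659, 8.35 ± 1.02 and 8.75 ± 0.708 CPM) did not differ beyond their spread (SD, n = 3). The WT mean at 4 h of Jurkat cells was the highest at 9.99 ± 0.588 CPM, but its lowest library (9.33 CPM) was below the highest with OVA at 30 min (9.52 CPM) and 4 h (9.48 CPM). With total counts it was lower than untreated and than OVA at 4 h, at a log2 fold change of -0.13 in each.

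Il18rap, the interleukin 18 co-receptor, was at 45.97, 53.6 and 50.1 CPM in untreated KO and at 34.2, 38.1 and 32.4 CPM in untreated WT. KO stood above WT without overlap in every condition. The difference was 0.52 on the log2 scale untreated (SE 0.0792, edgeR FDR 4.79e-05), 0.51 and 0.63 at 30 min, 0.64 with OVA at 4 h and 0.34 with Jurkat cells at 4 h (FDR 0.00501). Il1r2 was higher by 0.22 untreated (FDR 0.0333), 0.21 with OVA at 30 min (FDR 0.0325), and 0.26 and 0.27 at 4 h with OVA and Jurkat cells (FDR 0.00827 and 0.0102). With Jurkat cells at 30 min it was not called (0.09, FDR 0.451). The untreated Il1r2 call was lost without any 1 library but KO untreated replicate 1 (0.18 to 0.23, FDR 0.0615 to 0.156), and the 30 min OVA call without any 1 but KO 30 min OVA replicate 1 (0.12 to 0.22, FDR 0.0602 to 0.3603). At 4 h Il1r2 was lost without WT 4 h OVA replicate 2 (0.21, FDR 0.0672) or WT 4 h Jurkat replicate 2 (0.21, FDR 0.0798).

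**Figure D3:**
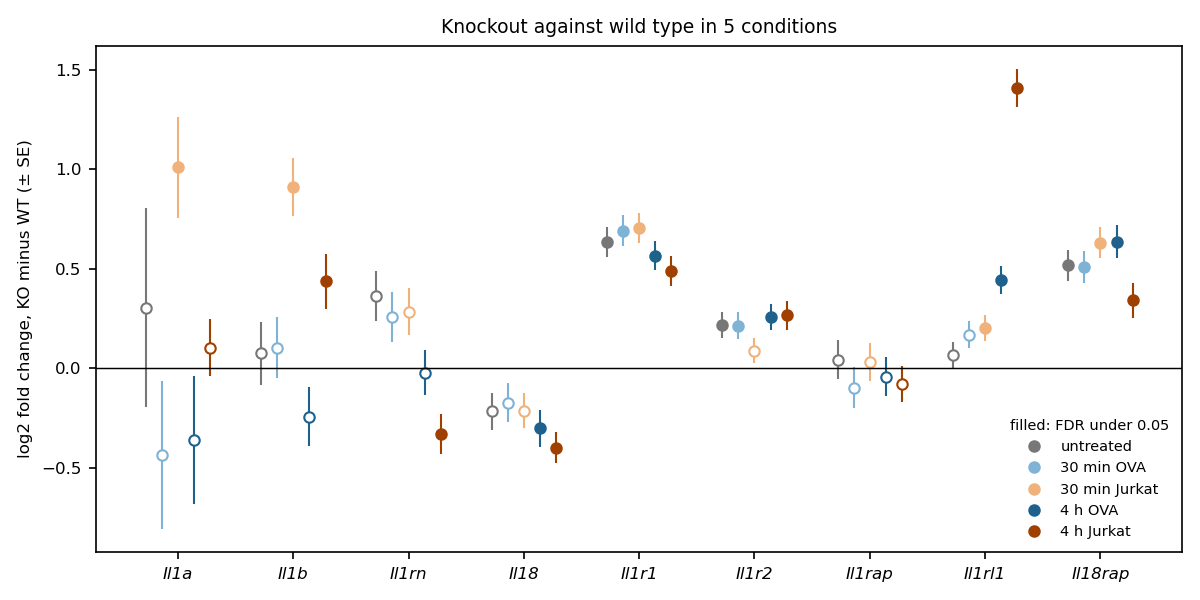
Log2 fold change of KO against WT (± SE) for the 9 genes in 5 conditions, by colour, with filled circles for an edgeR FDR under 0.05. All 5 circles are filled and above 0 for Il1r1 and Il18rap, and the highest circle of the plot is Il1rl1 with Jurkat cells at 4 h (1.41).

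The ST2 gene Il1rl1 showed the largest genotype difference of the 9 genes. Untreated libraries overlapped, at 20.8, 19.9 and 19.6 CPM in WT and 18.7, 22.6 and 21.7 CPM in KO. At 4 h of OVA WT was at 13.7, 11.3 and 11.98 CPM and KO at 16.5, 17.1 and 16.6 CPM, without overlap. At 4 h of Jurkat cells WT had dropped to 3.20, 3.50 and 3.18 CPM while KO held 8.86, 9.14 and 8.24 CPM, so every KO library held more than the highest WT library. The log2 difference there was 1.41 (SE 0.0972, edgeR FDR 8.19e-11), with 0.44 at 4 h of OVA (SE 0.0700, FDR 4.47e-05). At 30 min of Jurkat cells it was 0.20 (FDR 0.0485), which was lost without any 1 library but WT 30 min Jurkat replicate 1 (0.17 to 0.22, FDR 0.0796 to 0.209) and by DESeq2 (0.19, adjusted p 0.0548). It was also lost with DESeq2 size factors (FDR 0.0558), with TMM factors from genes not higher with Jurkat cells at 30 min (0.0674), with no filter (0.0571) and with only the groups compared (0.0933).

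Tested as a difference in response, the Il1rl1 fall with Jurkat cells at 4 h was smaller in KO than in WT: -1.26 against -2.61 on the log2 scale, a difference of 1.34 (SE 0.118, edgeR FDR 7.97e-08). It kept its call without any 1 library, at 1.27 to 1.40. Il1rn also differed, its rise being smaller in KO by 0.69 (SE 0.160, FDR 0.0127), but without KO untreated replicate 1 the difference was -0.54 (FDR 0.059). These were 2 of 9 members, where 4.26% of all genes were called, 1.72% higher and 2.55% lower. With the 3 other treatments 0 of 9 were called by edgeR, where 0% (30 min OVA), 0.0405% (4 h OVA) and 0.00675% (30 min Jurkat) of all genes were. By DESeq2 none was called either, with 6 of 9 left unadjusted at 30 min of Jurkat cells. Unadjusted p-values under 0.05 numbered 0 at 30 min of OVA, 2 at 4 h of OVA and 1 at 30 min of Jurkat cells. The last was Il1b, with a difference of 0.84 (SE 0.214, FDR 0.315).

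Among ligands, Il1b was higher in KO than in WT with Jurkat cells at both times. At 30 min the difference was 0.91 on the log2 scale (SE 0.146, edgeR FDR 1.39e-04), without overlap between the libraries given above, and 0.61 (FDR 8.64e-04) without KO 30 min Jurkat replicate 1. At 4 h it was 0.44 (SE 0.138, FDR 0.0215), again without overlap. That call was lost without KO 4 h Jurkat replicates 2 or 3 or WT 4 h Jurkat replicates 1 or 3 (0.41 to 0.44, FDR 0.0519 to 0.0676), and by DESeq2 (0.42, adjusted p 0.0512). In the conditions without Jurkat cells Il1b was not called, at 0.07, 0.10 and -0.24.

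Il1a was called only at 30 min of Jurkat cells (log2 1.01, SE 0.253, edgeR FDR 0.0103), where KO libraries were at 6.35, 2.51 and 3.54 CPM and WT libraries at 1.79, 2.71 and 1.69 CPM, which overlap. It was 0.56 (FDR 0.143) without KO 30 min Jurkat replicate 1, and was also lost without WT 30 min Jurkat replicates 1 or 3 (0.93 and 0.88, FDR 0.0519 and 0.0584) and with only the groups compared in the fit (1.01, FDR 0.0842). Il18 was lower in KO at 4 h, by -0.40 with Jurkat cells (SE 0.0783, FDR 4.65e-04) and -0.30 with OVA (FDR 0.0253). The OVA call was lost without KO 4 h OVA replicates 1 or 3 or WT 4 h OVA replicates 1 or 2 (-0.31 to -0.27, FDR 0.0600 to 0.104). Bco2, opposite Il18, was at 16.2 ± 1.14 CPM (KO) and 19.3 ± 1.58 CPM (WT) at 4 h of Jurkat cells.

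Il1rn was lower in KO at 4 h of Jurkat cells (log2 -0.33, SE 0.101, edgeR FDR 0.0180), without overlap. The call was lost with total counts (-0.25, FDR 0.0678) and without KO 4 h Jurkat replicate 3 (-0.32, FDR 0.0504) or WT 4 h Jurkat replicate 2 (-0.29, FDR 0.0872).

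Ratios of counts within a library need no scaling. The Il1b to Il1rn ratio, of ligand to antagonist, was 5.21, 4.82 and 4.68 in WT and 8.31, 8.10 and 8.58 in KO after 4 h of Jurkat cells. The KO mean was 1.70 times the WT mean, without overlap (p = 0.1 by a two-sided exact permutation test, 0.167 adjusted over 10 tests; 3 libraries against 3 cannot give a lower p). In the other 4 conditions the libraries overlapped, for example at 1.61 ± 0.205 in WT and 1.33 ± 0.198 in KO untreated (SD, n = 3). The Il1r2 to Il1r1 ratio, of decoy to signalling receptor, was lower in KO in all 5 conditions, at 0.654 to 0.857 times WT (exact permutation p = 0.1 each, 0.167 adjusted). The libraries were clearly apart in 4 conditions, but at 4 h of Jurkat cells the lowest WT and the highest KO ratio both round to 2.81. It was 10.7 ± 0.168 in untreated WT and 8.05 ± 0.903 in untreated KO, and 3.06 ± 0.264 and 2.62 ± 0.213 after 4 h of Jurkat cells.

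**Figure D4:**
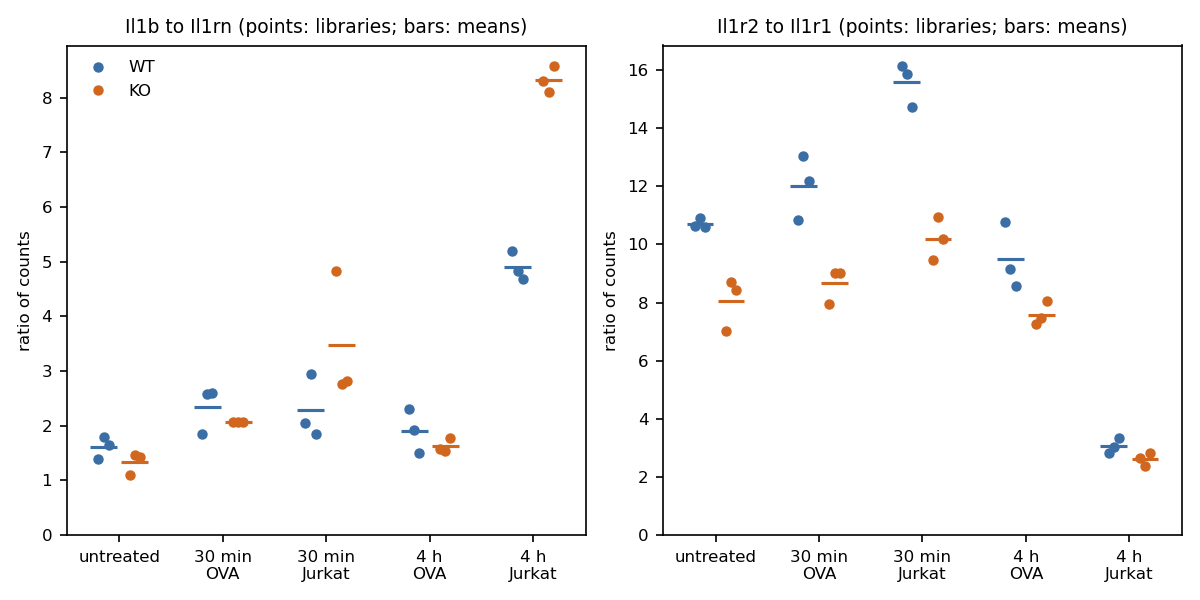
Ratio of raw counts within each library by condition, Il1b to Il1rn on the left and Il1r2 to Il1r1 on the right, with 1 point per library, bars at means, WT in blue and KO in orange. KO exceeds WT on the left only with Jurkat cells at 4 h without overlap, and its mean lies below that of WT in all 5 conditions on the right, where the genotypes meet at 4 h of Jurkat cells.

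Markers of other cell types moved with genotype in both directions. The 12 stromal markers, led by Fn1, Col1a2 and Col1a1, without treatment summed to 1030 to 1161 CPM (WT) and 1315 to 1713 CPM (KO), and to 1458 to 1656 and 1873 to 2262 CPM at 4 h of Jurkat cells. The 15 basophil and mast cell markers summed to 150.1 to 162 CPM in WT and 200.5 to 229 CPM in KO untreated, and to 183 to 191 and 261 to 291 CPM at 4 h of Jurkat cells. Neither sum overlapped between genotypes in any condition. Of the 15, Cma1, Il4, Mcpt4, Tpsab1 and Tpsb2 were under 1 CPM in all 10 groups. Kit, which progenitors also express, gave most of the sum (without treatment, WT 130.0 and KO 137 CPM). Mcpt8 (WT 3.57, KO 17.1 CPM), Prss34 (12.7, 34.9), Cpa3 (4.14, 10.7) and Gata2 (2.12, 5.45) lay farther apart without treatment. Each of these had a higher group mean in KO in all 5 conditions. Hdc at 4 h of Jurkat cells (WT 31.6, KO 25.3 CPM) and Kit at 4 h of OVA (132, 128) went the other way. The sum of the 10 plasmacytoid dendritic cell markers was lower in KO without overlap in all 5 conditions. Untreated, it was 2701 to 2781 CPM (WT) and 2394 to 2583 CPM (KO). At 4 h of Jurkat cells it was 3228 to 3912 and 2680 to 3008 CPM. Siglech, Runx2, Spib, Tcf4, Pacsin1 and Klk1 had lower group means in KO in all 5 conditions. Cox6a2 and Mzb1 had higher ones in all 5, and Ccr9 and Ly6d went both ways. Endothelial sums were lower in KO without overlap in 4 conditions, all but 30 min of Jurkat cells. In those 4 conditions Pecam1 and Kdr had lower group means in KO. Vwf (24.6 CPM in WT and 31.1 CPM in KO untreated) and Egfl7 had higher ones in all 5 conditions, and Cdh5 went both ways. The rest of this list had group means of at most 1.16 CPM. Natural killer and innate lymphoid markers (16 genes, mostly Il7r) summed to 144 ± 16.6 CPM in WT and 165 ± 21.9 CPM in KO untreated, and were higher in KO without overlap at 30 min of Jurkat cells and 4 h of OVA. Neutrophil markers (12 genes) summed to 198 ± 9.70 CPM in WT and 183 ± 19.2 CPM in KO untreated, with Ly6g and Retnlg under 1 CPM. Their sum was lower in KO without overlap at 30 min of Jurkat cells and 4 h of OVA. S100a8, S100a9, Ngp, Ltf, Mpo and Camp had lower group means in KO in all 5 conditions. Mmp9 had higher ones in all but 4 h of OVA (WT 49.6 and KO 81.5 CPM at 4 h of Jurkat cells). T-lineage sums were higher in KO without overlap untreated and at 4 h of OVA, and lower with Jurkat cells at both times. In that list Rag1 had higher group means in KO in all 5 conditions (untreated, WT 12.1 and KO 21.0 CPM). Cd28, the largest term untreated, had lower ones in all 5 (52.9 and 50.9 CPM). Conventional dendritic cell and monocyte sums overlapped in all 5 conditions, but H2-Ab1 and Lyz2 were their largest terms. Clec9a (untreated, WT 151 and KO 117 CPM) and Zbtb46 had lower group means in KO in all 5, and Itgax higher ones. Of the monocyte markers, Ly6c2 (untreated, WT 117 and KO 43.4 CPM), Fcgr1, Ccr2, Adgre1 and C1qa had lower ones in all 5. Lyz2 (2108 and 2390 CPM) had higher ones in all 5. The other markers of both lists went both ways. Basophils, mast cells and fibroblasts are known to express Il1rl1 or Il1r1, and the part of any of these cells in the genotype differences was not tested.

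Il1r2, Il1r1, Il1rl1 and Il18rap are neighbours on the plus strand of mm10 chromosome 1, at chr1:40084768-40125226, chr1:40225080-40316177, chr1:40429570-40465414 and chr1:40515362-40551705. Between them lie Il1rl2, the interleukin 36 receptor, and Il18r1, the ligand-binding chain for interleukin 18. Both were called higher in KO in all 5 conditions, Il18r1 at 0.65 to 0.94 and Il1rl2 at 0.35 to 0.51 on the log2 scale. Il1rl2 passed narrowly at 30 min of OVA (edgeR FDR 0.0480), 30 min of Jurkat cells (0.0388) and 4 h of Jurkat cells (0.0423). The calls of these 2 genes were not followed with single libraries left out. Untreated KO cells held Il18r1 at 7.68 ± 0.480 CPM, against 4.46 ± 0.268 CPM for WT (SD, n = 3). The edgeR FDR there was 2.01e-06, with a log2 SE of 0.0967. Map4k4, the kinase gene upstream of Il1r2, was not called in any condition (-0.05 to 0.06), nor was Mfsd9 downstream (-0.46 to 0.14). Slc9a2, also downstream, was called higher in 3 conditions at levels of at most 0.626 CPM. Creg2, upstream of Map4k4, was called higher in 1 condition (0.30 to 0.70 over the 5), at no more than 2.65 CPM.

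**Figure D5:**
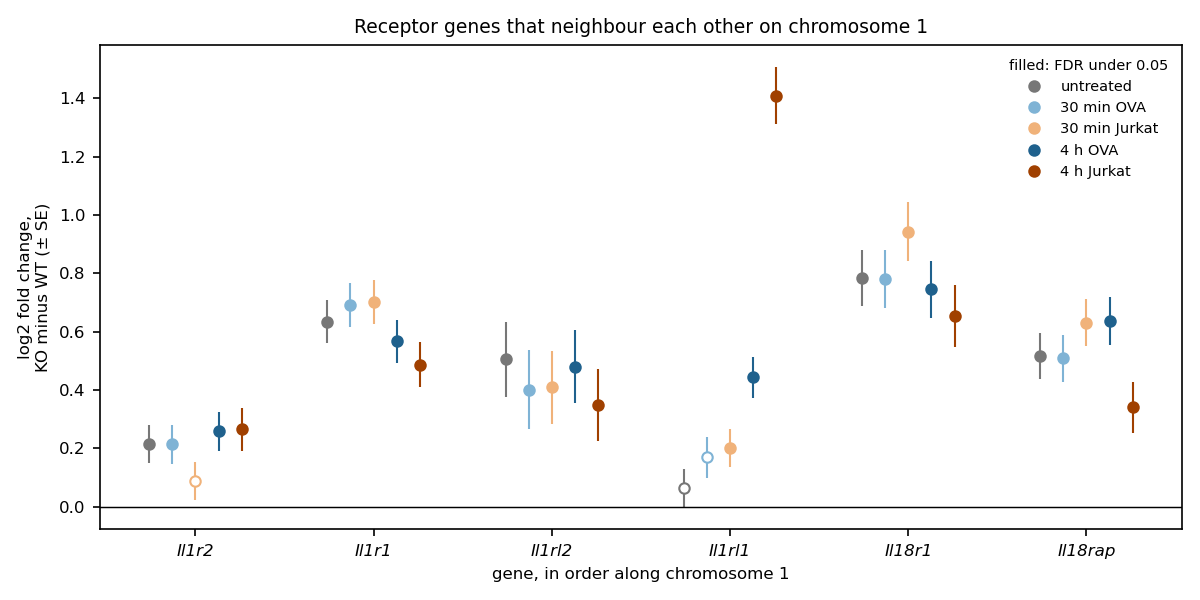
Log2 fold change of KO against WT (± SE) for 6 receptor genes in their order along chromosome 1, in 5 conditions by colour, with filled circles for an edgeR FDR under 0.05. Il1r1, Il1rl2, Il18r1 and Il18rap are filled in all 5 conditions, and only Il1rl1 spreads widely between conditions, from 0.06 to 1.41.

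The rest of the pathway was read from lists of genes. Of 12 other family genes 8 were in the table and 4 passed the filter. Besides Il18r1 and Il1rl2, Il18bp, the soluble interleukin 18 binding protein, was lower in KO at 4 h of OVA (log2 -0.48, edgeR FDR 0.00306) and of Jurkat cells (-0.54, FDR 1.91e-04). In WT it was higher at 4 h of OVA than untreated (0.47, FDR 0.00226). Sigirr, an inhibitory receptor of the family, fell from 32.7 ± 1.34 to 7.06 ± 0.351 CPM in WT at 4 h of Jurkat cells (SD, n = 3; log2 -2.21, FDR 1e-22). Il33, the ligand of ST2, did not pass the filter: WT groups held 2 to 5 counts summed over 3 libraries, and KO groups 5 to 27, the most at 30 min of Jurkat cells (0.192 ± 0.0818 CPM; SD, n = 3). Il1f10, Il1rapl1 and Il1rapl2 held 0 counts in untreated cells and at 4 h of Jurkat cells.

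Of 18 genes for processing and release, 3 were lower and 1 higher in untreated KO, and 8 lower and 1 higher at 4 h of Jurkat cells (medians -0.04 and -0.12; all genes -0.01 in both). Of all genes 9.97% and 22.9% were called in these comparisons. Casp1, the protease that matures interleukin 1 beta and 18, in untreated cells stood at 43.8 CPM (KO) and 52.9 CPM (WT; log2 -0.27, SE 0.0516, edgeR FDR 6.61e-04). At 4 h of Jurkat cells it was at 109 and 147 CPM (-0.43, FDR 5.36e-07). In WT 6 of the 18 were higher and 2 lower at 4 h of OVA, among them Mefv, the pyrin gene (1.60, FDR 6.87e-12), and 8 higher and 7 lower at 4 h of Jurkat cells, where 23.5% and 79.5% of all genes were called. Casp4, encoding caspase-11, went from 9.39 to 243 CPM there (4.69, FDR 6.04e-23).

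Of 23 receptor signalling genes, 1 was lower in untreated KO and 5 at 4 h of Jurkat cells, near or under the 9.97% and 22.9% of all genes called. Irak2, a kinase of the MyD88 complex, was lower in both (log2 -0.17, edgeR FDR 0.00952, and -0.23, FDR 1.68e-04). In WT at 4 h of Jurkat cells 15 were higher and 5 lower (79.5% of all genes called), and Mapk14, the p38 alpha kinase gene, had a log2 fold change of -1.62 (FDR 6.68e-25). Irak3, which restrains the pathway, was higher at 4 h of OVA in WT (0.63, FDR 1.29e-09), where 4 of 23 were higher and 2 lower (23.5% of all genes called).

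Of 17 known interleukin 1 targets, all were higher at 4 h of Jurkat cells in both genotypes (medians 4.68 in WT and 4.20 in KO; 38.9% and 37.5% of all genes were called higher), among them Nfkbia, the NF-kB inhibitor, at 93 CPM untreated and 1141 CPM treated in WT. Other stimuli also induce these genes. In KO against WT, 2 were higher in untreated cells, 9 higher and 1 lower at 30 min of Jurkat cells, 9 lower at 4 h of OVA and 2 higher and 2 lower at 4 h of Jurkat cells. The medians were 0.11, 0.35, -0.44 and 0.02, and 9.97%, 9.25%, 12.6% and 22.9% of all genes were called. Counts are not given for 30 min of OVA. Most group means of the targets were lower in KO there, and those higher in KO were at most 3.42 CPM. In that condition Nfkbia was at 128 CPM (KO) and 145 CPM (WT), Sod2 at 57.7 and 58.9 CPM and Cxcl1 at 3.08 and 3.35 CPM. Ptges was among those higher in KO, at 1.33 and 0.653 CPM. The target counts were not followed without KO 30 min Jurkat replicate 1, which stood apart for Il1b. Cxcl1, a neutrophil chemokine gene, stood at 105 CPM (KO) and 59.97 CPM (WT) at 4 h of Jurkat cells (log2 0.81, SE 0.0936, edgeR FDR 7.52e-07). Ptges was higher in untreated KO (1.11, FDR 0.00253), and Sod2 rose in WT at 4 h of OVA (0.89, FDR 1.16e-16).

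Across the 30 libraries, the genes most like each member were listed by Pearson correlation of log2 CPM over 10716 genes of at least 5 CPM in 1 group. These values share libraries and the same 4 h Jurkat step, and are a description. Il1a was nearest to Ptgs2 (r = 0.993), Il1b to Maff (0.992) and Tnfaip3 (0.990), Il1rn to Anxa4 (0.994) and Il18 to Nmi (0.987). Among receptors, Il1r2 was nearest to Chn2 (0.986), Il1rap to Pphln1 (0.982) and Il1rl1 to Fcgr2b (0.970). Il1r1 and Il18rap, the members with the steadiest genotype difference, had weaker best matches, Scd1 (0.946) and Blk (0.915).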

How the data were processed

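Total RNA of 30 libraries was sequenced after Trizol and column extraction and TruSeq library preparation, per the labels' protocols; the kit named does not mark strand. The deposited values are the authors' raw counts per gene. The submitters' processing notes name STAR 2.5, Subread, featureCounts 1.5.0-p1, DESeq2 and the mm10 build, with no roles or order. Annotation, strand setting and handling of human reads go unstated in the labels. Every row named a gene.

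Genes were kept with edgeR's filterByExpr (14808 genes, 99.99% of counts), scaled by TMM, and fitted with edgeR 4.0.16 in R 4.3.3 by the quasi-likelihood test, as 1 model of 10 groups with 20 residual degrees of freedom. P-values were adjusted by Benjamini-Hochberg over all genes within each of 21 comparisons. SE is the log2 fold change divided by the root of F. The fit was tested on simulated data. Members and lists were chosen with earlier results of these data known. All 9 members are named. From each pathway list at most 4 genes were named: those called with the smallest p in KO against WT untreated, KO against WT at 4 h of Jurkat cells, and WT at 4 h of OVA and of Jurkat cells against untreated. All 4 other family genes that passed the filter are also named. Likeness was ranked by Pearson correlation over genes of at least 5 CPM on average in 1 group. Alternatives were DESeq2 1.42.0, other scalings and filters, a replicate block, only the groups compared and leaving out each library.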

Additional observations from a re-analysis of the deposited data

Results flagged for a closer look

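The response of Il1rl1, the ST2 gene, to 4 h of Jurkat cells differed between genotypes by a test of the difference itself: KO minus WT response was 1.34 on the log2 scale (SE 0.118, edgeR FDR 7.97e-08), with a fall in both genotypes. The response of the antagonist Il1rn at the same time also differed by that test, at -0.69 (SE 0.160, edgeR FDR 0.0127), with a rise in both. Without KO untreated replicate 1, which held Il1rn at 23.3 CPM against 17.6 and 17.1 CPM in the other KO untreated libraries, it was -0.54 (FDR 0.059). Stromal and basophil marker sums were higher and plasmacytoid dendritic cell sums lower in KO in all 5 conditions, and their part in these differences was not tested.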

How the results depend on the processing

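Of 90 called gene results, 68 kept direction and call under every alternative run, among them Il1r1 and Il18rap in all 5 comparisons of KO with WT (log2 0.44 to 0.76 and 0.29 to 0.71). With total counts Il1r1 turned to -0.13 for WT 4 h Jurkat against untreated, -0.13 against OVA in WT and -0.17 against OVA in KO; the cause was not tested. Leaving out 1 library, members called numbered 21 to 24 for KO against WT (23 with all), 13 to 18 for OVA (17), 25 to 26 for Jurkat cells (26), 21 to 24 for Jurkat cells against OVA (22) and 1 to 3 for the difference in response (2). Without both the shallowest library and KO 30 min Jurkat replicate 1, chosen after seeing the data, the counts were 20, 16, 26, 22 and 2. Whether replicate numbers pair the libraries was not settled by correlation. Same-numbered deviations correlated at -0.205 to 0.217 over 135 pairs (median 0.0041), and differently numbered ones at -0.314 to 0.317 over 270 pairs (median -0.00012). Of these, 11 and 9 pairs were over 0.1. Of 30 libraries, 14 correlated best with their own number among 3 numbers. With the number as a replicate block the counts were 22, 15, 26, 22 and 2. The block ended the calls of Il1rl1 for KO against WT at 30 min of Jurkat cells (FDR 0.0585) and of Il1r2 for WT 4 h OVA (0.0543) and KO 30 min OVA (0.0544) against untreated. Depth limits Il1a most, with 17 to 34 counts per library in untreated WT.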
